A study of Mus musculus with 8 samples.

Results

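Oncofetal genes are active in the fetal liver, are silenced after birth and often return in liver tumours. The group described here holds 10 oncofetal and imprinted genes, chosen by name and found by symbol among the 55536 genes of the count table: Afp, Gpc3, H19, Igf2, Dlk1, Meg3, Igf2bp1, Igf2bp2, Igf2bp3 and Lin28b. RNA was sequenced after removal of ribosomal RNA from the livers of C57BL/6 mice, which were wild type, lean and 2 months of age, with light and dark phases of 12 h each and free access to food. The mice behind all 8 samples received 0.1 OD of an adenovirus and, 1 week later, were fasted overnight and killed. The virus carried a short hairpin RNA against Eif4ebp3 in the knockdown group (4 samples) and against lacZ, a bacterial gene that mice lack, in the control group (4 samples). No uninjected mice were analysed here, and the cells that took up the virus are not given in the labels.

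Alpha-fetoprotein, the product of Afp, is the main plasma protein of the fetal liver, and glypican-3, the product of Gpc3, is a cell surface heparan sulfate proteoglycan. H19 and Igf2 are imprinted neighbours: the growth factor gene Igf2 is expressed from the paternal copy and the non-coding RNA H19 from the maternal copy. Dlk1, which encodes a membrane protein of hepatoblasts, and the non-coding RNA Meg3 form another such pair. Igf2bp1, Igf2bp2 and Igf2bp3 encode RNA-binding proteins first known for binding Igf2 mRNA. Lin28b encodes a protein that blocks the maturation of let-7 microRNAs, and let-7 in turn represses Lin28b and Igf2bp transcripts. Eif4ebp3 encodes a repressor of translation that sequesters eIF4E, the factor that recognises the mRNA cap.

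The promoters of the 3 protein-coding members with the largest changes are shown because these genes were higher together. Each runs from 250 bases before to 50 bases after the annotated start, taken from RefSeq on GRCm38.p6, in which 8 of the 10 members had an entry. Capitals mark matches on either strand to any of 6 patterns. The TATA box was searched as TATAAA. The CCAAT box was searched as its name spells it. The pattern for C/EBP was TTGCNNAA. For AP-1, a dimer of Jun and Fos proteins, it was TGANTCA. The antioxidant response element was searched as TGACNNNGC. For TEAD factors, the partners of YAP, it was GGAATG.
Afp, chr5:90490464-90490763, plus strand: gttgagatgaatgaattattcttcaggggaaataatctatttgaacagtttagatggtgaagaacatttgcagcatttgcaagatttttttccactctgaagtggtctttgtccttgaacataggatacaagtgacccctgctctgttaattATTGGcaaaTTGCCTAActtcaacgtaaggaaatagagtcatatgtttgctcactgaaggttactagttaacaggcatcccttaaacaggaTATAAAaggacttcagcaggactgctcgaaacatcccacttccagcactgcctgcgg
Gpc3, chrX:52613925-52614224, minus strand: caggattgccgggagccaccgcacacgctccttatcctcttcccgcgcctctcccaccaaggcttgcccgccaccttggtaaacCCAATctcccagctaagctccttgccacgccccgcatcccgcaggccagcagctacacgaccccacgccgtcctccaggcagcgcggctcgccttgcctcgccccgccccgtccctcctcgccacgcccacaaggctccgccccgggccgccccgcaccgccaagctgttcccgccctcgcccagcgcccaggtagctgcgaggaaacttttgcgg
Igf2bp3, chr6:49214905-49215204, minus strand: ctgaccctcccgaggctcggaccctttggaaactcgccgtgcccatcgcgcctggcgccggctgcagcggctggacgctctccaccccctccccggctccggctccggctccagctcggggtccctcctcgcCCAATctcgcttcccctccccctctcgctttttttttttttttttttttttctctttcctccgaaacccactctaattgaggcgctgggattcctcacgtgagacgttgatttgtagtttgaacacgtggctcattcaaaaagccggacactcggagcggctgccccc
The Afp promoter was poor in CpG, with 3 CpG and a G and C content of 40%. Those of Gpc3 and Igf2bp3 held 30 and 25 CpG at 70.7% and 60.3%, whereas the median of 32851 promoters was 7 CpG and 52.7%. Afp alone of the 3 had a TATAAA and a C/EBP match, and it held a CCAAT on the minus strand. Its TATAAA stood at -7 to -2 from the RefSeq start, which differs from the gene start of 90490737 given below. Of all promoters, 13.6% held a TATA box, 10.8% a C/EBP match and 37.4% a CCAAT box. Gpc3 and Igf2bp3 each held a CCAAT and no other match. No AP-1 match (7.81% of promoters) was in any member's window, and antioxidant response element (12.4%) and TEAD (14.7%) matches were, among members, only in windows of Igf2. These are matches of letters, and binding was not measured.

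The small RNAs tied to these genes are shown with their seeds, bases 2 to 8, in capitals. H19 holds the miR-675 hairpin in an exon, and let-7a stands for the let-7 family, of which 9 of 10 mature members in RefSeq carry the same seed.
miR-675-5p: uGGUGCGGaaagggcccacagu
miR-675-3p: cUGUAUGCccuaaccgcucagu
let-7a-5p: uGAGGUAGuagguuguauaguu
The match to the let-7 seed, CTACCTC, stood 4 times in the 3′ UTR of Igf2bp1, 4 times in that of Lin28b and once each in those of Igf2bp2 and Igf2bp3. The first match of each is shown with its flanks, the match in capitals.
Igf2bp1: gaagtaaaCTACCTCaaggt
Igf2bp2: aataaaagCTACCTCaggtg
Igf2bp3: ttactcaaCTACCTCaggta
Lin28b: cgggaagtCTACCTCatgca
Of 21020 annotated 3′ UTRs, 9.02% held CTACCTC. Among UTRs of similar length the share was 36.1% for Igf2bp1, 22.7% for Lin28b, 11.3% for Igf2bp2 and 14.3% for Igf2bp3. The 3′ UTRs of Afp, Igf2, Gpc3 and Dlk1 held none. Neither did H19 RNA. The whole Meg3 RNA, of 14548 bases, held 3, and 63.6% of 11 UTRs of similar length held a match. The mature microRNAs were not measured in these libraries.

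The samples held 24189216 to 32074059 counts in named genes. Eif4ebp3, the targeted gene, held 289, 215, 204 and 49.3 normalised CPM (counts scaled to a library of 1000000) in control replicates 1 to 4, and 9.61, 13.9, 37.2 and 19.5 CPM in knockdown replicates 1 to 4. The groups did not overlap, and control replicate 4 lay nearest the knockdown samples. It also lay nearest them on the first principal component, at -40.8 against -74.5 to -64.8 in the other controls and 49.2 to 70.8 in the knockdown samples. Eif4ebp3 fell by 3.24 ± 0.53 on the log2 scale (SE; adjusted p = 0.000379, edgeR's quasi-likelihood test with Benjamini-Hochberg adjustment, as for every adjusted p given here). Scaling factors differed between the groups, 0.776 to 0.890 in controls and 1.15 to 1.26 in knockdown samples. With total count scaling the median gene moved up by 0.56 on the log2 scale, so changes are given relative to the median gene, and directions that depend on this are named. Of 15375 genes tested, 57.2% differed at an adjusted p under 0.05, 29.5% being higher and 27.8% lower in the knockdown. The labels number the samples of a group but do not say whether each came from its own mouse, so p-values here cover only the spread between samples, which may be technical.

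Of the 10 genes, 6 were higher in the knockdown (Afp, Gpc3, H19, Igf2, Igf2bp2 and Igf2bp3), 1 was lower (Meg3), and 3 had too few counts to be tested (Dlk1, Igf2bp1 and Lin28b). In each of the 6 every knockdown sample lay above every control sample, which held for 27.4% of all genes tested (52.1% with either direction counted). H19, Afp, Gpc3 and Igf2bp3 were higher by at least 3 on the log2 scale, a limit set after their values were seen and passed by 1.15% of all genes tested. The median change of the 7 tested members was 3.48, beside -0.0032 for all genes tested. The members were chosen with earlier results of these data known, so these counts and this median are a description. The 6 remained higher under each of the 20 alternative settings, leaving out control replicate 4 among them. With total count scaling, under which 63.9% of all genes tested were higher and 7.72% lower, these 6 were higher and none of the 10 was lower.

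**Figure D1:**
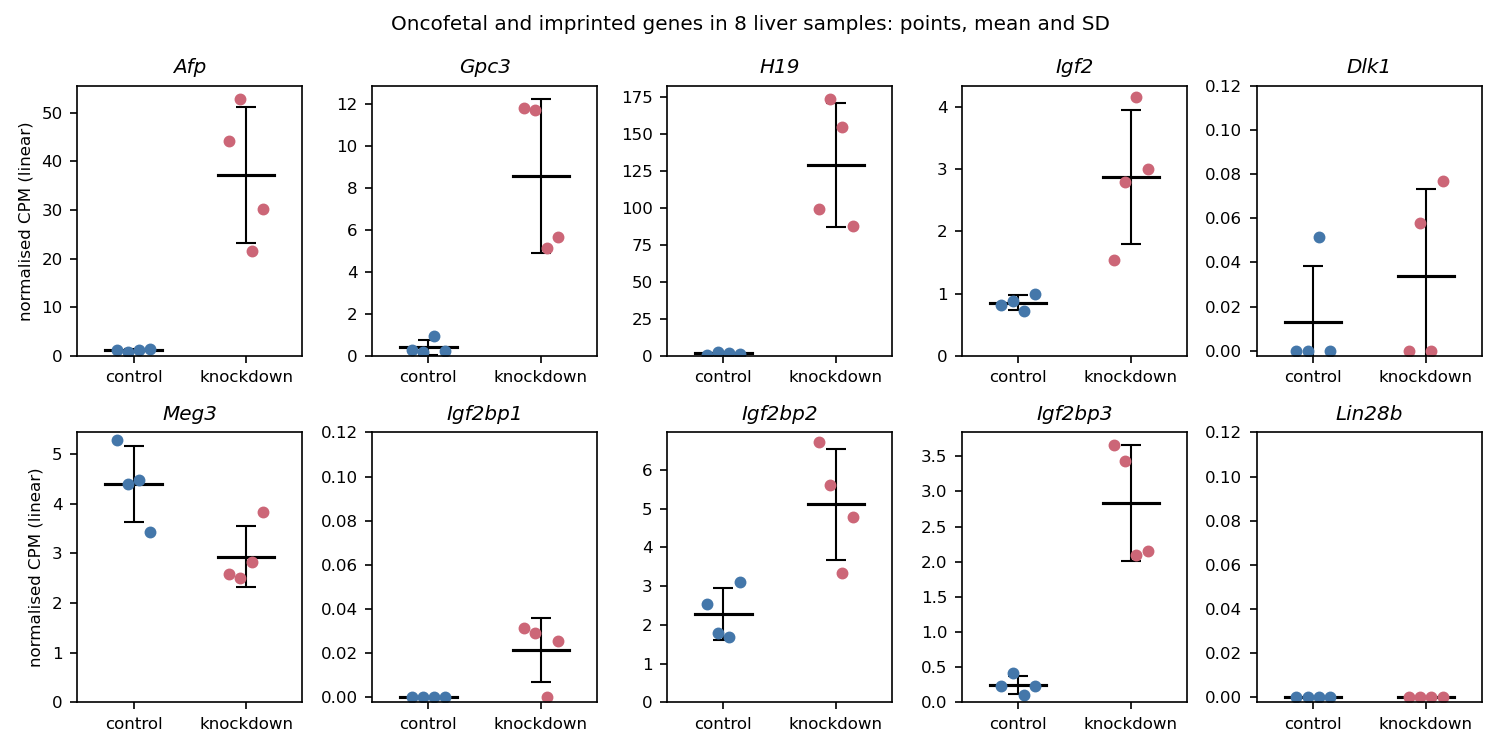
Normalised CPM (linear axis, own range in each panel) of the 10 genes in the 4 control and 4 knockdown samples. Points are samples, and bars show the mean and SD of each group. The 6 genes that were higher show no overlap between groups, Meg3 overlaps, and Dlk1, Igf2bp1 and Lin28b lie at or near 0.

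Afp was nearly silent in the control livers and was raised 32-fold. Afp (chromosome 5, 90490737 to 90508907, plus strand, mm10) held 1.25, 0.748, 1.13 and 1.51 CPM in the controls and 44.2, 52.9, 21.5 and 30.2 CPM in the knockdown samples. Knockdown replicate 3, the lowest, was still far above control replicate 4, the highest control. The group means were 1.16 ± 0.316 and 37.2 ± 14 CPM (SD, n = 4 each), a log2 fold change of 5.0 ± 0.32 (SE; adjusted p = 9.3e-07). Only 0.26% of the genes tested had a larger increase. The raw counts behind these values were 16 to 33 in controls and 627 to 1820 in knockdown samples.

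Afp lies in a cluster with Alb, which encodes the adult plasma protein albumin, and with Afm and Gc, which encode the vitamin carriers afamin and vitamin D-binding protein. Alb was at 40836 ± 4894 and 42072 ± 4191 CPM and did not pass the test (log2 fold change 0.04 ± 0.15, adjusted p = 0.83). Afm fell by 0.36 and Gc fell by 0.33 on the log2 scale (adjusted p = 0.0152 and 0.0123). Total count scaling turned the signs of both, to 0.20 for Afm, not called, and 0.23 for Gc, called higher, and Alb at 0.61 was then called higher. Per kilobase of exon, Alb exceeded Afp by 50698 times in the controls and by 1626 times in the knockdown samples.

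Gpc3, the glypican gene, was raised from a few reads per sample. Gpc3 (chromosome X, 52272426 to 52613950, minus strand) held 0.288, 0.187, 0.926 and 0.228 CPM in the controls and 11.8, 11.7, 5.15 and 5.66 CPM in the knockdown samples. Control replicate 3 stood above the other controls, and knockdown replicates 1 and 2 were about level, above replicates 3 and 4. Means were 0.407 ± 0.348 and 8.59 ± 3.67 CPM (SD, n = 4), a log2 fold change of 4.42 ± 0.48 (SE; adjusted p = 2.1e-05). The control value rests on 4 to 18 counts a sample, and leaving out 1 sample at a time moved the log2 fold change between 4.17 and 5.17.

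Gpc4, its neighbour and fellow glypican, was abundant in the controls: it was at 55.3 ± 5.63 and 39.2 ± 3.12 CPM, having dropped by 0.50 ± 0.09 (log2; adjusted p = 0.000841; 0.07 and not called with total count scaling). Among 19 tested glypicans, syndecans and heparan sulfate enzymes, Gpc3 included, 6 were higher and 6 lower, with a median of 0.13. Both counts were near the shares of all genes tested, 29.5% higher and 27.8% lower. The syndecan genes split: Sdc3 rose by 1.23, whereas Sdc2 fell by 1.02 and Sdc4 fell by 1.5 on the log2 scale (adjusted p = 8.05e-06, 1.96e-05 and 0.000114). Scaled by total counts, 15 of the 19 were higher and 2 lower, beside 63.9% and 7.72% of all genes tested.

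**Figure D2:**
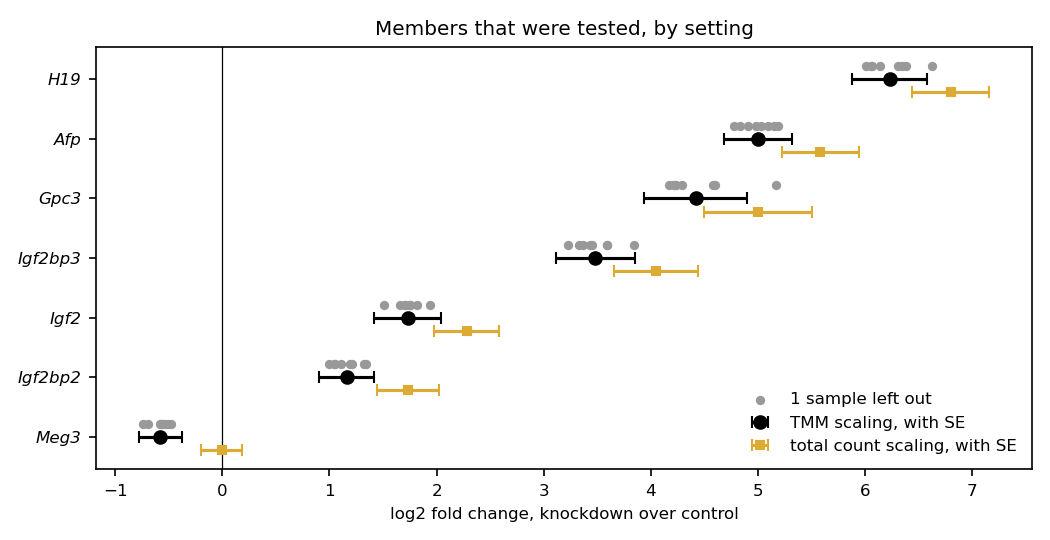
Log2 fold change of knockdown over control for the 7 members tested. Black points are the TMM-scaled values with their SE, yellow squares the values under total count scaling with their SE, and grey points the values with 1 sample left out. H19, Afp, Gpc3, Igf2bp3, Igf2 and Igf2bp2 stay above 0 throughout, and Meg3 reaches -0.0039 under total count scaling.

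H19, the imprinted non-coding RNA, had the largest increase of the group. H19 (chromosome 7, 142575529 to 142578143, minus strand) held 0.864, 2.9, 2.01 and 1.1 CPM in the controls and 99.7, 174, 155 and 88.1 CPM in the knockdown samples. Knockdown replicates 2 and 3 were the highest and replicate 4 the lowest, and the groups lay far apart. Means were 1.72 ± 0.929 and 129 ± 41.8 CPM (SD, n = 4), a 75.2-fold difference and a log2 fold change of 6.23 ± 0.35 (SE; adjusted p = 5.6e-07). It ranked 15 of 15375 by size of increase. The miR-675 hairpin, which lies in an H19 exon, was listed at 0 in all 8 samples, in libraries that were not made for small RNA.

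Igf2, the neighbouring growth factor gene, was also higher, from low levels. Igf2 (chromosome 7, 142650766 to 142666816, minus strand) held 0.816, 0.888, 0.72 and 1 CPM in the controls and 1.54, 2.79, 4.16 and 3 CPM in the knockdown samples. Knockdown replicate 1 came nearest to the controls and replicate 3 was the highest. Means were 0.857 ± 0.12 and 2.87 ± 1.07 CPM (SD, n = 4), a log2 fold change of 1.73 ± 0.31 (SE; adjusted p = 0.000629). The readthrough gene Gm49394 covers 62.8% of the Igf2 exon bases on the same strand and was listed at 0 in every sample, so how reads were divided between them is uncertain.

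Around this pair, 14 of 24 listed genes of the wider imprinted region and its flanks were tested, H19 and Igf2 included. Of these, 8 were higher, 1 lower and 5 not called, with a median of 0.47. All genes tested gave 29.5% higher and 27.8% lower (63.9% and 7.72% with total count scaling). Cdkn1c, a maternally expressed inhibitor of the cell cycle, rose from 2.29 ± 0.868 to 7.75 ± 0.283 CPM (1.75 ± 0.22 on the log2 scale, adjusted p = 5.86e-05). An antisense gene covers 30.7% of its exon bases, and the strandedness of the counts is not given. Phlda2, another maternally expressed growth inhibitor, rose by 1.92 ± 0.33 to 1.18 ± 0.372 CPM. The leukocyte gene Lsp1 rose by 1.32, the tetraspanin gene Tspan32 by 1.03, the mitochondrial ribosome gene Mrpl23 by 0.49 and the tetraspanin gene Cd81 by 0.22. Slc22a18 fell by 0.31 on the log2 scale, but total count scaling called it higher, at 0.26, making 12 of the 14 higher. Kcnq1, its antisense RNA Kcnq1ot1, Tssc4, Nap1l4 and Osbpl5 were not called, with log2 fold changes from -0.21 to 0.44. Ins2, Th and Mir483 were listed at 0, and Igf2os, Nctc1, Tnnt3, Tnni2, Syt8 and Ascl2 were too low to test.

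Meg3, the imprinted non-coding RNA of the other pair, was called lower, but this call was fragile. Meg3 (chromosome 12, 109541001 to 109571726, plus strand) held 5.28, 4.39, 4.47 and 3.42 CPM in the controls and 2.58, 2.5, 2.82 and 3.82 CPM in the knockdown samples. The groups overlapped, since knockdown replicate 4 lay above control replicate 4. Means were 4.39 ± 0.76 and 2.93 ± 0.608 CPM (SD, n = 4), a log2 fold change of -0.58 ± 0.20 (SE; adjusted p = 0.0264). The call was lost in 10 of 20 alternative settings, and with total count scaling the value was -0.0039 (adjusted p = 0.987). Without control replicate 1 it was -0.48 (adjusted p = 0.0795), and the call was also lost on leaving out either control replicate 2 or 3, or any of knockdown replicates 1 to 3 (adjusted p from 0.0513 to 0.0758).

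Dlk1 (chromosome 12, 109452823 to 109463336, plus strand) had 0, 0, 1 and 0 counts in the controls and 0, 2, 0 and 3 in the knockdown samples. The ratio of the 2 groups was 3.11, with a 95% interval of 0.348 to 147 that covers counting error only. A difference in Dlk1 was not detectable at this depth.

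Of 13 listed genes in the Dlk1 and Meg3 domain and its flanks, 8 were tested, Meg3 included. Of these, 1 was higher and 4 lower, with a median of -0.17. By comparison, 29.5% of all genes tested were higher and 27.8% lower (63.9% and 7.72% with total count scaling). Dio3os, a non-coding RNA beside the deiodinase gene Dio3, rose from 0.286 ± 0.0555 to 0.916 ± 0.33 CPM (log2 fold change 1.67 ± 0.37, adjusted p = 0.00255). Rian, a maternally expressed non-coding RNA next to Meg3, was at 0.841 ± 0.129 and 1.25 ± 0.238 CPM and did not pass the test (0.58 ± 0.24, adjusted p = 0.0616). The flanking genes Slc25a29, Slc25a47 and Yy1 fell by 1.29, 0.79 and 0.35 on the log2 scale, and Wdr25 and Ppp2r5c were not called. With total count scaling 5 of the 8 were higher, none was lower, and Yy1 was among the higher. Begain, Rtl1, Mirg and Dio3 were too low to test.

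**Figure D3:**
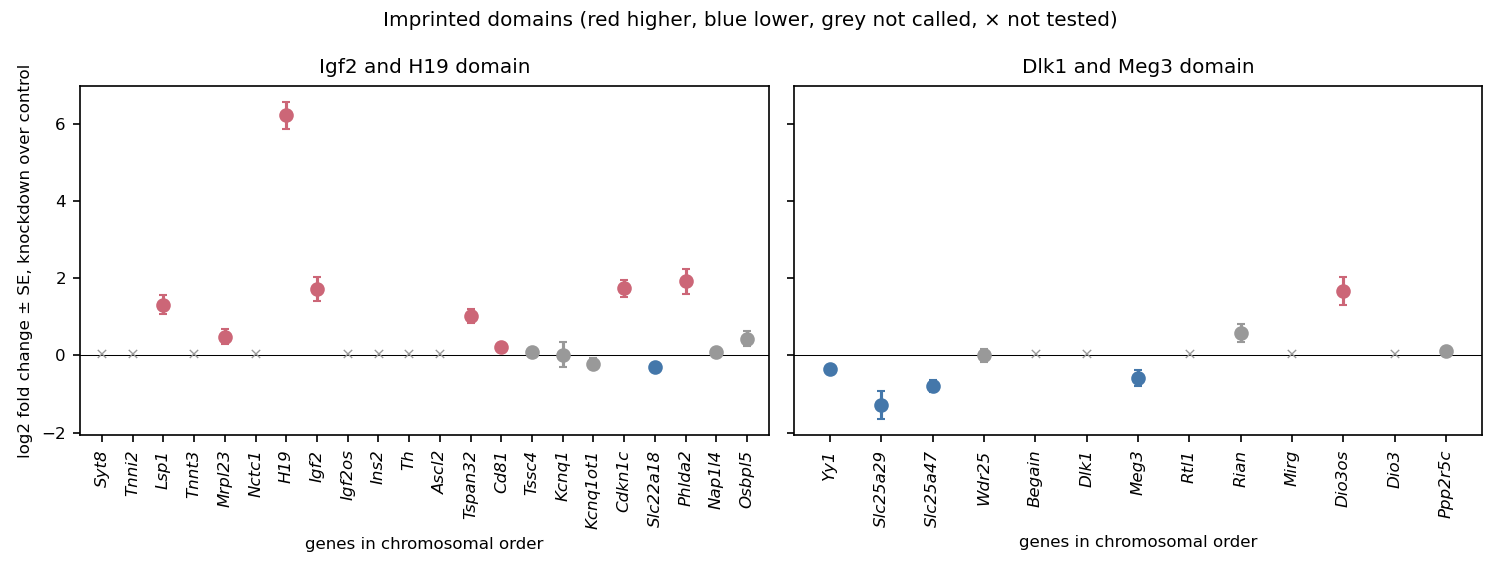
Log2 fold change with SE of the listed genes of both imprinted regions and their flanks, in chromosomal order at even spacing. MicroRNA genes are left out. Red points were called higher, blue lower and grey neither, and crosses mark genes not tested. H19 at 6.23 stands far above its neighbours, whereas Meg3 lies at -0.58.

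Of the paralogous RNA-binding protein genes, Igf2bp3 and Igf2bp2 rose and Igf2bp1 was barely detected. Igf2bp3 (chromosome 6, 49085223 to 49214957, minus strand) held 0.24, 0.42, 0.103 and 0.228 CPM in the controls and 3.66, 3.43, 2.1 and 2.15 CPM in the knockdown samples. Replicates 1 and 2 of the knockdown were the higher pair, and no control came near them. Means were 0.248 ± 0.131 and 2.83 ± 0.824 CPM (SD, n = 4), a log2 fold change of 3.48 ± 0.37 (SE; adjusted p = 1.91e-05). Malsu1, a mitochondrial ribosome assembly gene, covers 18.7% of the Igf2bp3 exon bases on the other strand. It was at 13.9 ± 0.911 and 12 ± 1.22 CPM and did not pass the test (adjusted p = 0.0934), but total count scaling called it higher, at 0.35 (adjusted p = 0.0154).

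Igf2bp2, the member of this family that adult tissues retain, was already expressed in the controls. Igf2bp2 (chromosome 16, 22059009 to 22163299, minus strand) held 2.54, 1.78, 1.7 and 3.1 CPM in the controls and 6.71, 5.61, 3.33 and 4.79 CPM in the knockdown samples. Knockdown replicate 3 lay just above control replicate 4, the highest control. Means were 2.28 ± 0.669 and 5.11 ± 1.42 CPM (SD, n = 4), a log2 fold change of 1.16 ± 0.26 (SE; adjusted p = 0.00291).

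Igf2bp1 (chromosome 11, 95957163 to 96005940, minus strand) had no count in the controls and 1, 1, 0 and 1 counts in the knockdown samples, at or under the limit of detection in both groups. Lin28b (chromosome 10, 45376620 to 45486395, minus strand) had no count in any sample. A count of 0 allows up to 3 counts, or 0.0769 to 0.154 CPM depending on the sample, for counting error only.

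Of 29 tested genes of the LIN28 and let-7 axis, Igf2bp2 and Igf2bp3 included, 15 were higher and 2 lower, with a median of 0.24. The shares of all genes tested were 29.5% higher and 27.8% lower. The cyclin gene Ccnd1 rose by 2.35, the cell cycle phosphatase gene Cdc25a by 2.10 and the chromatin protein gene Hmga1 by 1.14 on the log2 scale (adjusted p = 6.33e-07, 7.73e-07 and 6.88e-06). These 3 and Igf2bp3 had the smallest p of the list. Lin28a, the paralog of Lin28b, was also listed at 0. Hmga2, whose 3′ UTR holds 4 CTACCTC, was too low to test. The Ccnd1 3′ UTR held none, and LTO1 covers 23.4% of the Ccnd1 exon bases on the other strand. Scaled by total counts, 24 of the 29 were higher and 1 lower, beside 63.9% and 7.72% of all genes tested.

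Levels can be compared between genes only per length, here as CPM per kilobase of all annotated exons. In the controls H19 was at 0.697 ± 0.378, Afp at 0.344 ± 0.0937, Igf2bp2 at 0.308 ± 0.0904, Meg3 at 0.243 ± 0.042, Gpc3 at 0.151 ± 0.129, Igf2 at 0.15 ± 0.0209 and Igf2bp3 at 0.0304 ± 0.016 (SD, n = 4). Igf2bp3 was below Igf2 by more than their spread, and the other neighbours in this order did not differ beyond theirs. In the knockdown the order was H19 at 52.5 ± 17, Afp at 11 ± 4.16, Gpc3 at 3.19 ± 1.37, Igf2bp2 at 0.691 ± 0.192, Igf2 at 0.502 ± 0.187, Igf2bp3 at 0.347 ± 0.101 and Meg3 at 0.162 ± 0.0336. H19, Afp and Gpc3 were then separated by more than their SDs, as were Gpc3 and Igf2bp2, and Igf2bp3 and Meg3. Igf2 overlapped both Igf2bp2 and Igf2bp3. With the longest transcript as the length Igf2bp3, at 0.652, passed Igf2, at 0.608.

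**Figure D4:**
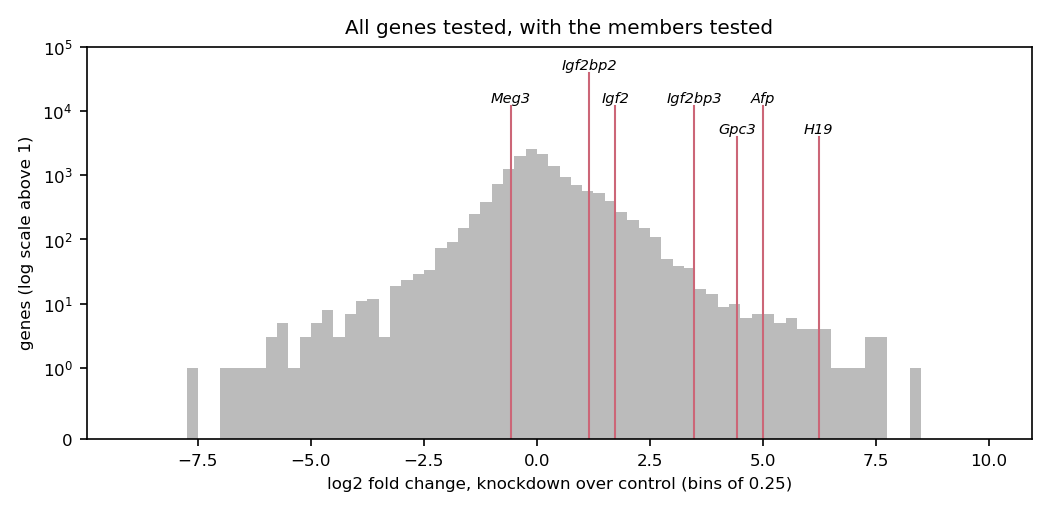
Log2 fold change of knockdown over control for 15375 genes in bins of 0.25 (grey bars, log axis above 1), with the 7 tested members as red lines whose height has no meaning. H19, Afp, Gpc3 and Igf2bp3 lie in the right tail, and Meg3 lies in the bulk.

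The knockdown samples did not rank alike for every gene. Gpc3, Igf2bp2 and Igf2bp3 were lowest in replicate 3, then rose through replicates 4 and 2 to replicate 1, and Afp was also lowest in replicate 3. H19 was lowest in replicate 4, and Igf2 was lowest in replicate 1 and highest in replicate 3. Residual Eif4ebp3 rose through replicates 1, 2, 4 and 3, the order of Igf2 and the reverse of that of Gpc3, Igf2bp2 and Igf2bp3. Afp and H19 followed neither order. The highest sample exceeded the lowest by 1.74 times for Igf2bp3 and by 2.69 times for Igf2. Some steps in these orders were near ties. Gpc3 was at 11.8 and 11.7 CPM in knockdown replicates 1 and 2. Igf2bp3 was at 2.1 and 2.15 CPM in knockdown replicates 3 and 4. With 4 samples these orders are a description, and a relation to residual Eif4ebp3 was not tested.

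**Figure D5:**
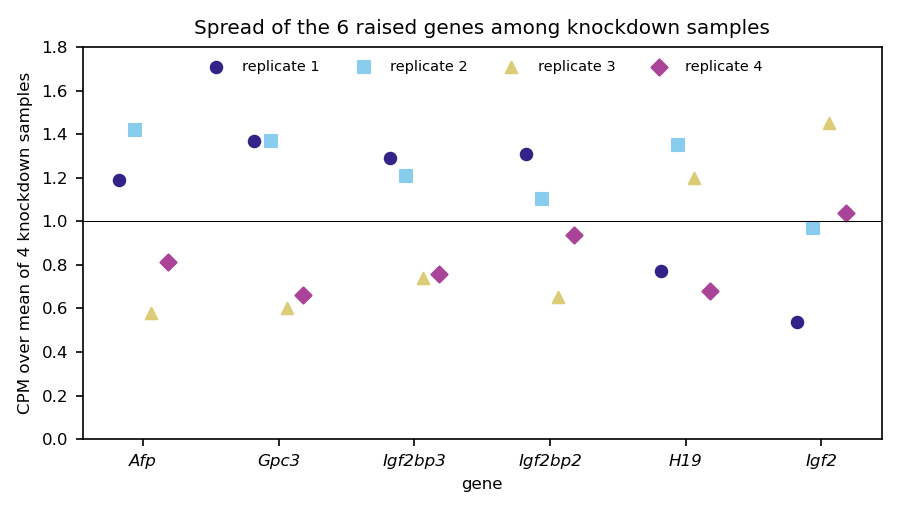
Level of the 6 raised genes in each knockdown sample, divided by the mean of the 4 (linear axis). Symbols mark replicates. Replicate 3 is lowest for Afp, Gpc3, Igf2bp3 and Igf2bp2, at 0.579 to 0.74 of the mean, and highest for Igf2, at 1.45.

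The genes whose profiles over the 8 samples were most like those of the members were found among 13556 genes by the root mean square distance of log2 CPM, each gene centred on its mean. Genes with a like difference between the groups lie close by this measure, and shared regulation was not tested. Nearest to Afp were Gpnmb, Fndc10 and Ly6d (distance 0.28, 0.34 and 0.40). For Igf2bp3 these were Plxna3, Pak6 and Golm1 (0.23, 0.28 and 0.34), and for Gpc3 Inka2, Coro6 and Gipc2 (0.42, 0.50 and 0.55). For H19 the closest were Lipn, Cbr3 and Muc13, at 0.62, 0.63 and 0.67. Lipn and Muc13 had control means of only 0.0474 CPM each, with log2 fold changes of 7.43 and 6.75. Slc7a6, Siva1 and Anxa9 were nearest to Igf2 (0.29, 0.29 and 0.30), Orai2, Slamf6 and Pdlim2 to Igf2bp2 (0.13, 0.14 and 0.14), and Fmo1, Dus4l and 4833420G17Rik to Meg3 (0.10, 0.12 and 0.12).

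Markers of some other liver cell types were higher alongside these genes, and those of hepatocytes were mostly lower. In bulk tissue a change in the number of cells of a type and in RNA per cell cannot be told apart. Of 15 hepatocyte markers 12 were lower and none higher, and their summed level was 85896 to 111383 CPM in controls and 67026 to 87757 CPM in knockdown samples, which overlap. Stellate cell and fibroblast markers were higher for 11 of 16 and lower for 1, with sums of 316 to 400 and 671 to 1124 CPM. Macrophage markers were higher for 13 of 14 tested (499 to 670 and 1278 to 1542 CPM), T and NK cell markers for 12 of 14 with 1 lower (18.5 to 37.1 and 60.7 to 81.1 CPM), and cholangiocyte markers for 5 of 8 with 1 lower (65.9 to 83.9 and 101 to 136 CPM). All 14 proliferation markers were higher (67 to 116 and 334 to 432 CPM). Endothelial markers were higher for 1 of 12 and lower for 3, and blood progenitor and erythroid markers higher for 3 of 11 and lower for 2, with sums that overlapped between groups. Total count scaling gave 2 hepatocyte markers higher and 10 lower, 4 endothelial markers higher and none lower, and 8 blood progenitor and erythroid markers higher and 2 lower. It gave 14 stellate cell and fibroblast, 14 macrophage, 12 T and NK cell, 7 cholangiocyte and 14 proliferation markers higher, and lower only 1 T and NK cell marker. Among all genes tested, 29.5% were higher and 27.8% lower (63.9% and 7.72% with total count scaling). No marker of these lists was at 0 in all samples. The part of these cells in the rise of Afp, Gpc3, H19, Igf2, Igf2bp2 and Igf2bp3 was not tested.

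Known regulators of Afp and H19 were mostly lower. Of 18 tested, 1 was higher and 11 lower, with a median of -0.42, and with total count scaling 6 were higher and 2 lower. Over all genes tested, 29.5% were higher and 27.8% lower (63.9% and 7.72% with total count scaling). Rbl2, a pocket protein of the retinoblastoma family, and Cebpa, which encodes C/EBP alpha, fell by 0.98 and 1.15 on the log2 scale (adjusted p = 5.04e-06 and 4.8e-05). Trp53, the p53 gene, rose by 0.81 (adjusted p = 9.07e-05). Zhx2 and Zbtb20, which encode repressors of Afp after birth, fell by 0.37 and 0.53 (adjusted p = 0.0241 and 0.000628), but with total count scaling they were at 0.20 and 0.04 and not called. Genes on the other strand overlap exons of Rbl2.

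Imprinted genes outside the 2 imprinted regions were called in shares near those of all genes tested, of which 29.5% were higher and 27.8% lower. Of 30 tested, 8 were higher and 10 lower, with a median of 0.07. With total count scaling 20 were higher and 5 lower, beside 63.9% and 7.72% of all genes tested. The amino acid transporter gene Slc38a4 fell by 1.42, from 1713 ± 113 to 642 ± 97.2 CPM, Ppp1r9a fell by 1.53 and Zrsr1 fell by 1.07 on the log2 scale (adjusted p = 3.96e-06, 9.27e-07 and 4.41e-06). Igf2r, which encodes the receptor that clears IGF2, rose by 0.89 from 67 ± 6.21 to 124 ± 15.6 CPM (adjusted p = 3.86e-05). Among 19 tested genes of imprint maintenance 8 were higher and 5 lower, with a median of 0.09 and 13 higher and 1 lower with total count scaling. Dnmt1, the maintenance DNA methyltransferase, Uhrf1, its recruiting partner, and Hells, a chromatin remodeller, rose by 1.92, 3.25 and 2.90, while Setdb1, a histone methyltransferase gene, fell by 0.54 on the log2 scale (adjusted p = 1.22e-06, 4.12e-06, 1.09e-05 and 0.000442). With total count scaling Setdb1 was at 0.02. DNA methylation and the parental copy in use were not measured.

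In the IGF system, to which Igf2 belongs, 9 of 16 tested genes were lower and 3 higher, with a median of -1.15. With total count scaling 6 were lower and 4 higher. For all genes tested the shares were 27.8% lower and 29.5% higher (7.72% and 63.9% with total count scaling). The growth factor gene Igf1 went from 495 ± 86.7 to 158 ± 23.5 CPM (log2 fold change -1.65, adjusted p = 4.77e-06). Igfals, whose product carries IGF in plasma, the insulin receptor gene Insr and the binding protein gene Igfbp4 fell by 2.10, 1.17 and 1.19 on the log2 scale (adjusted p = 8.08e-06, 1.09e-06 and 2.12e-05).

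Other genes of the fetal liver or of liver tumours were mostly higher, as 25 of 29 tested were, with 2 lower and a median of 1.92. With total count scaling 27 were higher and 1 lower. The shares over all genes tested were 29.5% higher and 27.8% lower (63.9% and 7.72% with total count scaling). This list was chosen with earlier results of these data known, so its count is a description. Ly6d, a surface protein gene, rose by 5.25, from 4.65 ± 1.92 to 177 ± 25.6 CPM (adjusted p = 2.39e-07). The desaturase gene Scd2, the Golgi protein gene Golm1 and the glucose-6-phosphate dehydrogenase gene G6pdx rose by 2.15, 3.09 and 1.54 on the log2 scale (adjusted p = 7.46e-07, 7.57e-07 and 1.6e-06). Naa35 covers 29.3% of the Golm1 exon bases on the other strand. The embryonic globin genes Hbb-bh1 and Hba-x were listed at 0 in every sample.

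In the authors' deposited table the log2 fold change was 4.77 for Afp, 5.60 for H19, 3.98 for Gpc3, 3.18 for Igf2bp3, 1.64 for Igf2, 1.12 for Igf2bp2 and -0.56 for Meg3. The authors' deposited table marks the first 6 as significant and not Meg3, whose adjusted p there is 0.0178.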

How the data were processed

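For the 8 samples the authors deposited estimated counts by gene in 1 table (expected counts, not normalised). Of its values 10.9% were not whole (tolerance 1e-06), and all were rounded. Of 56181 entries, 645 name no gene (0.676 to 1.08% of a sample's counts) and were left out. A deposited table of the authors' own comparison gives a fold change (a ratio), its log2 value and p-values, per the file headers. A deposited column with another number per gene, its length, was not used for levels. The submitters' processing notes list mm10 and the tools SAMtools 1.9, GATK 3.8, Bowtie2 2.2.9 and fastp 0.19.5, with no role for any. The counter, annotation and strand setting were not given in the sources used here.

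Groups were taken from the sample labels. Knockdown was compared with control over the whole table in R 4.3.3 with edgeR 4.0.16 (filterByExpr, TMM factors, quasi-likelihood test, Benjamini-Hochberg adjustment over 15375 genes, threshold 0.05). The SE of a log2 fold change was derived as its absolute value over the square root of the F statistic of the quasi-likelihood test. CPM are counts scaled to 1000000 of the total multiplied by the TMM factor. Positions and exon overlaps are from GENCODE mouse release 21. Alternatives were DESeq2 1.42.0, limma-voom (limma 3.58.1), other scaling factors and filters, unnamed loci kept, a replicate block, the code letter of the samples as a covariate or code letter C alone, leaving out each sample, and a test against a minimum fold of 1.5. The edgeR fit was run on simulated counts with few changed genes, raised and lowered in equal number. That setting does not test the scaling between groups that differ as widely as these.

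The members and the gene lists were chosen with earlier results of these data known. Named were all members, their neighbours in imprinted domains or gene clusters, and from other lists up to 4 called genes with the smallest p and a mean of at least 1 CPM. Zhx2, Zbtb20, Malsu1, Lin28a, Hmga2, Hbb-bh1 and Hba-x fall outside this rule and were named after their values were seen. A gene that the rule would name is not reported here. An exact permutation test planned for members outside the fit was not run, since none of the 3 had counts in 4 samples.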

Additional observations from a re-analysis of the deposited data

Results flagged for a closer look

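Gpc3 in control replicate 3 was at 0.926 CPM, apart from the other 3 controls at 0.187 to 0.288 CPM. Its gap to the nearest control was 0.863 of the range of the group, above Dixon's 95% critical value for 4 samples. Of 14 groups examined (7 genes in 2 groups) it was the only one past that value, and chance alone gives this in about 5% of groups. It rests on 18 counts, and Gpc3 was higher in the knockdown with and without this sample.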

How the results depend on the processing

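Afp, H19, Igf2, Gpc3, Igf2bp2 and Igf2bp3 kept their direction and their side of the threshold under all 20 alternatives. Their log2 fold changes ranged from 4.78 to 5.58, 6.01 to 6.80, 1.51 to 2.28, 4.17 to 5.17, 1.00 to 1.73 and 3.23 to 4.05. None of the 7 members tested changed sign. Total count scaling turned the neighbouring genes Gc, Slc22a18 and Yy1 from lower to higher, at 0.23, 0.26 and 0.22. Total count scaling gave 9831 genes higher and 1187 lower, and a minimum fold of 1.5 gave 3721 genes in all, 2399 higher and 1322 lower.

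The number of members lower, which is 1 (Meg3), became 0 with upper-quartile factors, total count scaling, the replicate block and the minimum fold, and ranged from 0 to 1 when 1 sample was left out. Meg3 was then at -0.50 (adjusted p = 0.0503), -0.0039 (0.987), -0.59 (0.0588) and -0.58 (0.64), and from -0.74 to -0.48 with 1 sample left out. The cause was not tested. The replicate block changed no other call of a member. Same-numbered samples correlated at -0.128, -0.0383, 0.0584 and 0.148, so the numbers do not pair the samples. Per kilobase of the longest transcript, the knockdown levels of Afp, Meg3, Igf2bp2 and Igf2bp3 were 18, 0.201, 1.03 and 0.652. Depth limits Dlk1, Igf2bp1 and Lin28b, and the control values of Gpc3 and Igf2bp3.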

Other observations

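Dlk1 belongs to the family of Notch ligands, of which 11 of 16 listed genes with their receptors and targets were tested. In the knockdown 7 were higher and 2 lower, with a median log2 fold change of 0.94 (8 higher and none lower with total count scaling). Across all genes tested, 29.5% were higher and 27.8% lower (63.9% and 7.72% with total count scaling). The target genes Hes1 and Heyl rose by 1.22 and 2.03 on the log2 scale, from 3.36 ± 0.481 to 7.81 ± 0.571 CPM and from 1.19 ± 0.445 to 4.86 ± 0.413 CPM (SD, n = 4; adjusted p = 4.09e-05 and 4.48e-05). The receptor gene Notch1 and the ligand gene Jag1 rose by 0.94 and 0.97 (adjusted p = 0.000751 and 0.00493).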
